A study of Mus musculus with 9 samples.

Results

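A set of 9 genes that mark alternatively activated macrophages or blood-derived monocytes were followed in the mouse retina: Chil3, Retnla, Mrc1, Cd163, F13a1, Ccr2, Ly6c2, Il4ra and Fgl2. They were taken by symbol from the deposited table, which held all 9 of them among its 22337 genes. RNA-seq had been done at P28 on 3 groups with 3 libraries each, 9 libraries in all. The WT group was C57 BL/6J retina without any injection. The other groups were rd10 retina, in which a mutation of Pde6b, a gene for a rod phosphodiesterase subunit, makes the photoreceptors degenerate. The first rd10 group was NS-treated (normal saline) and the second MSC-EVs-treated, with extracellular vesicles from human umbilical cord mesenchymal stem cells. Both groups were given 1 μL per eye, first at P14 and a second time at P21. The design text places the injection in the vitreous, as does a label on growth, whereas the label on treatment calls it intravenous. The rd10 animals were littermates, the WT animals came from another source, and the WT eyes were not injected, so that genotype, source and injection cannot be told apart between WT and NS. The labels give no sex and do not say whether the libraries came from separate animals, so a p-value here measures the spread between these libraries only.

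Macrophages that meet interleukin 4 or interleukin 13 switch on a program known as alternative activation. The cytokine binds a receptor that contains the chain encoded by Il4ra, Janus kinases phosphorylate STAT6, and STAT6 drives genes such as Chil3, Retnla and Mrc1. Classical monocytes, in contrast, carry Ly6C and the chemokine receptor CCR2, leave the blood towards CCL2 and become macrophages in the tissue, while microglia are the resident macrophages of the retina and are low in both.

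The library totals ranged from 19491717 counts (NS replicate 2) to 62532343 counts (MSC-EVs replicate 3), so that 1 count was worth between 0.0155 and 0.05 CPM (counts scaled to library size and by TMM factors, which correct for composition). The tissue label held: 9 rod genes, led by Gnat1, summed to 35234 to 38207 CPM in WT and to 8788 to 12373 CPM in rd10. The MSC-EVs libraries did not form one set. The 4 Y-linked genes Kdm5d, Uty, Ddx3y and Eif2s3y summed to 183 and 189 CPM in MSC-EVs replicates 1 and 2, and to between 0.237 and 0.5 CPM in the 7 remaining libraries, among them MSC-EVs replicate 3 (0.358 CPM). MSC-EVs replicate 3 was also the deepest library and had the lowest summed level of 11 resident microglia genes in rd10 (175 CPM, against 196 to 297 CPM in the other rd10 libraries). Results that rest on these libraries are therefore given library by library.

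Positions of the 9 genes were read by gene identifier from the GENCODE M21 annotation of GRCm38; the authors' build is not given in the sources used here. All 9 are protein-coding genes on different chromosomes. Chil3 lies at chr3:106147554-106167564 (minus strand), Retnla at chr16:48842551-48844461 (plus) and Mrc1 at chr2:14229392-14332057 (plus). Cd163 lies at chr6:124304656-124330527 (plus), F13a1 at chr13:36867178-37050244 (minus), Ccr2 at chr9:124101950-124113557 (plus), Ly6c2 at chr15:75108158-75111970 (minus), Il4ra at chr7:125552120-125579474 (plus) and Fgl2 at chr5:21372642-21378374 (plus). The sources do not say that the libraries or the counting kept the strand, so reads of Il4ra, F13a1 and Fgl2 cannot be told apart from reads of overlapping genes on the other strand (Gm44876 for Il4ra, Gm30489 and Gm49144 for F13a1, Ccdc146 for Fgl2). Ccdc146 itself was given 0 to 7 counts per library. Sequence shared with other genes was largest for Chil3, where 26.9% of the 50-base windows of its transcripts also occur in another gene (16.9% in Chil4), and for Ly6c2 (14.5%, of which 13.9% in Ly6c1). For Il4ra this share was 8.4% and for Ccr2 1.9%, and Retnla, Mrc1 and Fgl2 had 0 shared windows. Chil4 had 0 counts in every library, and Ly6c1 is described below with the relatives of the 9 genes.

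RefSeq promoter windows on GRCm38.p6, each of 300 bases (250 before the start of a transcript and 50 after it), were found for all 9 genes. The windows of Retnla, Chil3 and Ly6c2 are shown as examples of those that hold letters bound by factors of the macrophage program. Windows of Fgl2 and F13a1 also hold such letters and are not shown. Capitals mark the spaced palindrome TTCNNNNGAA, bound by STAT6, the shorter palindrome TTCNNNGAA, bound by STAT factors, and GAGGAAGT (or its reverse complement ACTTCCTC), a core bound by PU.1, the transcription factor of the macrophage lineage.
Retnla, chr16:48842359-48842658, plus strand: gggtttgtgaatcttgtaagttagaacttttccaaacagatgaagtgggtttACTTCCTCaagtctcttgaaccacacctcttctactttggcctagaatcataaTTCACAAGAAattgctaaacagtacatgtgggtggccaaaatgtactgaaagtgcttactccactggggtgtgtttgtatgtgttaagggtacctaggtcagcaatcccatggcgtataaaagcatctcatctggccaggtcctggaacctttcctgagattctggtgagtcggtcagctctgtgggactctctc
Chil3, chr3:106167515-106167814, minus strand: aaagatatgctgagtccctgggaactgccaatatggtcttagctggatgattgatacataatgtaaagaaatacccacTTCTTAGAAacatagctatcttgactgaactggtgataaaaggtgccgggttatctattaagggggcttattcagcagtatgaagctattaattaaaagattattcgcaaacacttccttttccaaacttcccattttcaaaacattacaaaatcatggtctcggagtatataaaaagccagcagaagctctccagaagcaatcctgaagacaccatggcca
Ly6c2, chr15:75111922-75112221, minus strand: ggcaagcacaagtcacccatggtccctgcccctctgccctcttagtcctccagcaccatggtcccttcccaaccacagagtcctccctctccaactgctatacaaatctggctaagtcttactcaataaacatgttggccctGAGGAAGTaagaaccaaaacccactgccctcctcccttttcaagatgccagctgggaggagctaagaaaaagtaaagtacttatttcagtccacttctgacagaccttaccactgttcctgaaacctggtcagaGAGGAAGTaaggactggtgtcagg
Among the 9 genes, the STAT6 palindrome stood only in the window of Retnla, as TTCACAAGAA with its first base 145 bases before the start. It occurs in 6.95% of the 32851 windows of all genes, searched on both strands. The shorter palindrome stood in Chil3 (TTCTTAGAA) and in Fgl2 (TTCTGGGAA) and occurs in 8.3% of all windows. The PU.1 core stood in Retnla (198 bases before the start), in Ly6c2 at 2 places, which a second, overlapping window of that gene also holds, and in a second start of F13a1, and occurs in 3.2% of all windows. The windows of Mrc1, Cd163, Il4ra and Ccr2 held none of these letters. No match overlapped another. These matches describe the sequence only, and binding was not measured.

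NS-treated rd10 was first compared with WT, which asks how the degenerating retina differs in these genes. In the 3 NS libraries, all 7 tested members were higher than in WT by at least 2-fold in the fitted value (edgeR's quasi-likelihood test, adjusted p under 0.05). Retnla and Cd163 did not reach the filter on low counts. Of the 14644 genes tested, 9.16% were called higher and 3.56% lower, and for 66.9% every library of one group lay above every library of the other. The 7 members should not be read against this share, because Chil3, Mrc1, F13a1, Ccr2 and Ly6c2 passed the filter in none of the WT libraries and were tested only through their level in NS. Fgl2 passed it in 1 WT library, and Il4ra in all 3. With limma on log2(FPKM + 1), Mrc1, F13a1 and Ccr2 fell under the fold limit. Chil3 stayed just above it (1.13), but its FPKM in NS replicate 3 refers to another transcript length, as described below. Its call on that scale therefore cannot be relied on. In bulk tissue, fewer cells of a type and less RNA per cell cannot be told apart, and this holds for each result below.

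The receptor chain was the member with the steadiest values. Il4ra, which encodes the alpha chain shared by the receptors for interleukin 4 and interleukin 13, had 8.70, 7.97 and 6.06 CPM in WT replicates 1 to 3 and 22.0, 21.3 and 21.3 CPM in NS. The WT and NS libraries did not overlap, and the NS libraries lay within 1 CPM of each other. The log2 fold change was 1.5 ± 0.12 (SE, n = 3 per group, adjusted p = 6.82e-07).

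The secreted products of alternatively activated macrophages were at or near 0 counts in WT. Chil3, which encodes the secreted chitinase-like protein Ym1, had 1, 0 and 1 counts in WT and 29, 27 and 10 counts in NS (0.980, 1.32 and 0.458 CPM). Every NS library was above every WT library, with a fitted log2 fold change of 4.66 ± 0.75 (adjusted p = 0.000187). The call was lost when all 9 libraries were fitted together (4.70, adjusted p = 0.075). Since the WT group held 2 counts in all, the ratio of the group totals, 29.7, has a wide counting interval (7.90 to 250.2, 95%, counting error only). Retnla, which encodes the secreted resistin-like molecule alpha, had 0 counts in all WT libraries and 0, 5 and 0 counts in NS. Its presence in NS thus rested on 1 library, at least 1.5-fold higher than the floor of 3 counts for the WT group.

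Scavenger receptor and perivascular macrophage genes were near 0 in WT. Mrc1, the mannose receptor CD206, had 4, 1 and 3 counts in WT and 73, 29 and 48 counts in NS (2.47, 1.42 and 2.20 CPM). The groups did not overlap (log2 fold change 3.99 ± 0.45, adjusted p = 1.11e-05). F13a1, the catalytic A subunit of coagulation factor XIII, had 1, 0 and 1 counts in WT and 73, 21 and 31 counts in NS (2.47, 1.03 and 1.42 CPM). Its fitted log2 fold change was 5.52 ± 0.67 (adjusted p = 1.98e-05), and the ratio of totals was 56.2 (counting interval 15.2 to 469). Cd163, the receptor that clears hemoglobin bound to haptoglobin, had 0 counts in WT and 25, 1 and 3 counts in NS. NS replicate 1 held most of these counts, and the group total was at least 8.69-fold above the WT floor.

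Both monocyte genes were close to absent in WT. Ccr2, the receptor for CCL2, had 1, 1 and 0 counts in WT and 55, 25 and 15 counts in NS (1.86, 1.23 and 0.686 CPM). Its fitted log2 fold change was 5.14 ± 0.71 (adjusted p = 5.6e-05), with a ratio of totals of 42.7 (11.5 to 358). Ly6c2, which encodes one of the Ly6C surface proteins of classical monocytes, had 0, 2 and 0 counts in WT and 224, 47 and 33 counts in NS (7.57, 2.30 and 1.51 CPM). NS replicate 1 was more than 3-fold above either of the other NS libraries, yet all 3 were above WT. The fitted log2 fold change was 6.74 ± 1.25 (adjusted p = 0.00343), and the ratio of totals was 137 (37.5 to 1134). The fitted value rested on the few WT counts and on NS replicate 1: it was 9.47 without WT replicate 2, which held both WT counts, and 5.69 without NS replicate 1.

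Fgl2, which encodes fibrinogen-like protein 2, an immunoregulatory protein made by macrophages and regulatory T cells, had 0.135, 0.313 and 0.5 CPM in WT and 12, 10.6 and 9.11 CPM in NS. The NS libraries were close to each other and far from WT, with a log2 fold change of 5.07 ± 0.28 (adjusted p = 2.8e-08).

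**Figure D1:**
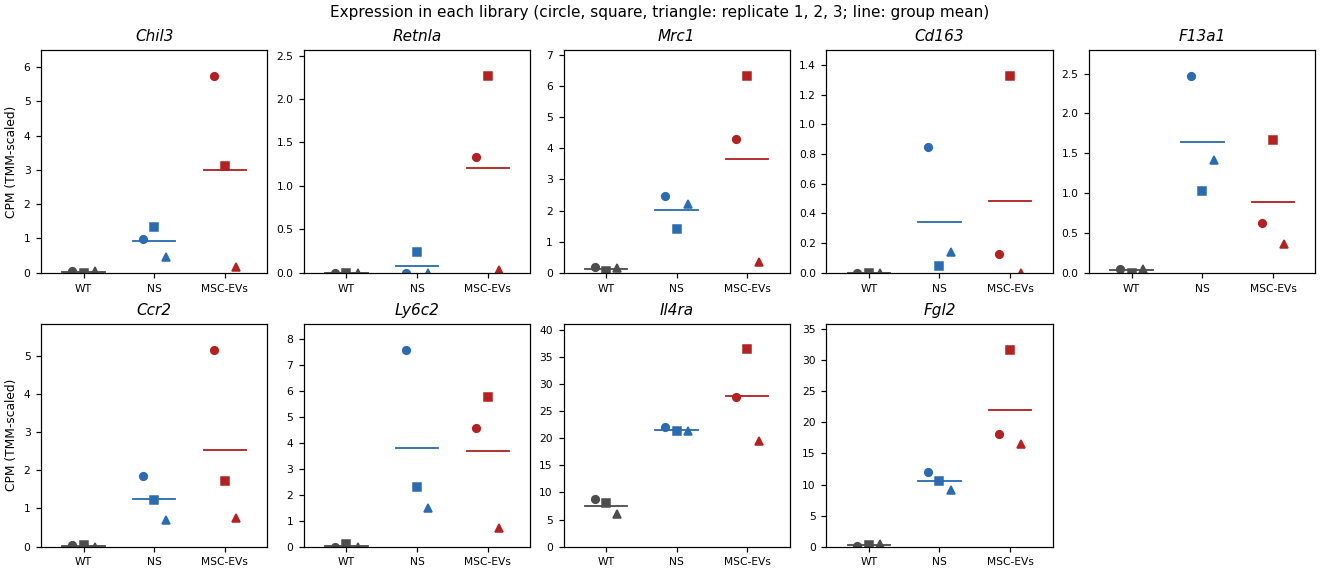
CPM of each of the 9 genes (vertical axes, linear and from 0, a separate scale per gene) in each of the 9 libraries, with the group mean as a line. Chil3 and Retnla were highest in MSC-EVs replicates 1 and 2, MSC-EVs replicate 3 (triangle) lay at 0.155 CPM for Chil3, and Fgl2 was above every NS library in all 3 MSC-EVs libraries.

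MSC-EVs-treated rd10 was next compared with NS-treated rd10, which asks whether the vesicles changed these genes. Of the 7 members tested, 0 passed with edgeR's quasi-likelihood test, and 0.061% of the 14765 genes tested did (9 genes). At an unadjusted p under 0.05, 1 member was reached, Fgl2, which is 1 of 7 where 20.2% of all genes were. DESeq2's Wald test called the same gene (adjusted p = 0.00045), and limma on log2 FPKM with an added 1 or 0.1 called 0 members. The fitted change was positive for 5 members and negative for 2, with a median log2 fold change of 0.79 beside -0.0016 over all genes. These contrasts use the same NS libraries as the comparison with WT, so the values of both are not independent.

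Fgl2 was the only member with all 3 MSC-EVs libraries above all 3 NS libraries, a separation in either direction that 26.2% of the tested genes showed. It had 18.1, 31.6 and 16.5 CPM in MSC-EVs replicates 1 to 3, against 9.11 to 12 CPM in NS. The log2 fold change was 1.05 ± 0.27 (adjusted p = 0.104). MSC-EVs replicate 2 was the highest, and without it the log2 fold change was 0.71 (adjusted p = 0.0225). When all 9 libraries were fitted together the gene passed (1.05, adjusted p = 0.0437), and with the Y-linked level of each library as a covariate it did not (0.65, adjusted p = 0.314).

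Chil3 and Retnla were split between the MSC-EVs libraries. Chil3 had 5.73 and 3.12 CPM in MSC-EVs replicates 1 and 2 and 0.155 CPM in replicate 3, below the lowest NS library. Its log2 fold change of 1.65 ± 1.22 did not pass (adjusted p = 0.512), and was 0.73 without MSC-EVs replicate 1 and 2.26 without MSC-EVs replicate 3 (adjusted p = 0.0505). Retnla had 32, 53 and 2 counts, and was not tested. The ratio of its group totals, MSC-EVs to NS, was 11.2 (4.62 to 35.3, counting error only), and 2 of 3 libraries carried it (5.54 without MSC-EVs replicate 2, 25.8 without MSC-EVs replicate 3). The libraries with high Chil3 and Retnla were the ones with high Y-linked expression. With the Y-linked level of each library as a covariate, the log2 fold change of Chil3 was -2.52 (adjusted p = 0.126), a fit in which MSC-EVs replicate 3 alone stands for the treatment at a low Y-linked level. No WT or NS library had a high Y-linked level, so that treatment and sex cannot be told apart for MSC-EVs replicates 1 and 2.

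Of the scavenger receptor genes, Mrc1 had 4.31 and 6.32 CPM in MSC-EVs replicates 1 and 2, above all NS libraries, and 0.342 CPM in replicate 3, below all of them (log2 fold change 0.79 ± 0.98, adjusted p = 0.709). The fitted change was 0.073 without MSC-EVs replicate 2 and 1.37 without MSC-EVs replicate 3 (adjusted p = 0.0572). With the Y-linked level of each library as a covariate, it turned to -2.54. F13a1 was the member with the most negative fitted change, with 0.627, 1.66 and 0.358 CPM (log2 fold change -1.0 ± 0.59, adjusted p = 0.382). Its value moved to -1.83 (adjusted p = 0.0594) when MSC-EVs replicate 2 was left out, to -0.55 when NS replicate 1 was, and to -0.54 when MSC-EVs replicate 3 was. MSC-EVs replicates 1 and 3 lay below every NS library. Cd163 had 3, 31 and 0 counts, again with 1 library holding most of them, and a ratio of totals of 0.754 (0.446 to 1.28). The direction turned with the averaging, since the mean CPM was 0.344 in NS and 0.483 in MSC-EVs, and the deepest library, MSC-EVs replicate 3, held 0 counts. The ratio was 1.78 without that library and 0.0842 without MSC-EVs replicate 2.

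The monocyte genes overlapped between the rd10 groups. Ccr2 had 5.14, 1.71 and 0.746 CPM (log2 fold change 0.94 ± 0.77, adjusted p = 0.546). Its change turned to -0.11 without MSC-EVs replicate 1 and to -0.75 with the Y-linked covariate. Ly6c2 had 4.56, 5.76 and 0.715 CPM (-0.12 ± 0.95, adjusted p = 0.965), where the NS libraries ranged from 1.51 to 7.57 CPM. Its change turned to 0.91 without NS replicate 1 and to 0.41 without MSC-EVs replicate 3. Il4ra had 27.6, 36.5 and 19.4 CPM, 2 libraries above and 1 below NS (0.36 ± 0.21, adjusted p = 0.381). Its change was -0.14 with the Y-linked covariate.

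Across the 9 genes, MSC-EVs replicates 1 and 2 were both above all NS libraries for 5 (Chil3, Retnla, Mrc1, Il4ra and Fgl2), an order that 18.8% of the 14765 tested genes had. MSC-EVs replicate 3 was below all NS libraries for 6 (Chil3, Mrc1, Cd163, F13a1, Ly6c2 and Il4ra), as were 33.8% of the tested genes. Chil3, Mrc1 and Il4ra had both orders.

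MSC-EVs-treated rd10 was then set against WT, which shows how far its level lay from the healthy retina. All 4 tested members were higher: Ccr2, Ly6c2, Il4ra and Fgl2, where 9% of the 14623 tested genes were called higher. Ccr2 and Ly6c2 had passed the filter in none of the WT libraries. Fgl2 had a log2 fold change of 6.13 ± 0.46 (adjusted p = 6e-05), Ly6c2 of 6.67 ± 1.42 (adjusted p = 0.00891), Ccr2 of 6.13 ± 1.24 (adjusted p = 0.00532; 5.08 without MSC-EVs replicate 1) and Il4ra of 1.87 ± 0.26 (adjusted p = 0.00119). Ly6c2 lost the call without WT replicate 2 (9.79, adjusted p = 0.0537), and Ccr2 with limma on log2(FPKM + 1). The other 5 members did not reach the filter, and are given as ratios of group totals with counting intervals. These were 63.6 (17.4 to 529) for Chil3, 19.7 (9.88 to 46.2) for Mrc1 and 22.3 (5.96 to 187) for F13a1. Retnla was at least 16.8-fold and Cd163 at least 6.56-fold higher than the WT floor. These pooled ratios weight the deepest library, MSC-EVs replicate 3, the most. Without it they were 143 for Chil3, 42.8 for Mrc1 and 36.8 for F13a1. The bounds were then 38.7 for Retnla and 15.5 for Cd163, an alternative chosen after seeing the data. Leaving out another MSC-EVs library, also chosen after seeing the data, lowered some of them. Chil3 fell to 30.6 without MSC-EVs replicate 1. Without MSC-EVs replicate 2, Mrc1 fell to 11.4, F13a1 to 13.9 and the Retnla bound to 8.30. That library also held 31 of the 34 Cd163 counts in the group. Without MSC-EVs replicate 3, 8 members passed and 2108 genes were called in place of 1784. Of these members, Chil3, Retnla, Mrc1 and F13a1 were tested only through their level in MSC-EVs.

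**Figure D2:**
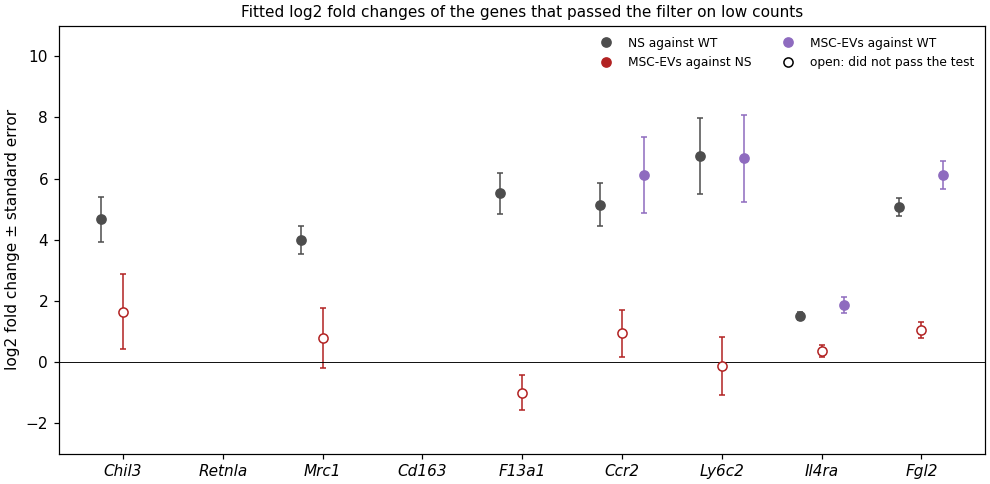
Log2 fold change with its standard error for each gene that passed the filter on low counts (vertical axis), in each of the 3 comparisons; filled points passed the test and open points did not. In NS against WT the filled points run from 1.5 (Il4ra) to 6.74 (Ly6c2), and every point of MSC-EVs against NS is open.

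Levels of different genes were compared in FPKM, which is scaled to transcript length. In WT, Il4ra came first (1.81 ± 0.354, SD, n = 3), and the other 8 genes had means of at most 0.0767. In NS the order was Il4ra (5.66 ± 0.104), Ly6c2 (5.10 ± 4.32) and Fgl2 (2.92 ± 0.380). F13a1 (0.437 ± 0.194), Mrc1 (0.397 ± 0.104) and Ccr2 (0.383 ± 0.175) followed, then Retnla (0.143 ± 0.248) and Cd163 (0.08 ± 0.104). Neighbors in this order overlapped, with the exception of Fgl2 (lowest 2.53) and F13a1 (highest 0.65). Chil3 was given no place in the NS order, because its FPKM in NS replicate 3 refers to another transcript length, as described next. It had 0.66 and 0.9 FPKM in NS replicates 1 and 2. The spread of Ly6c2, from 2.31 to 10.08, covered Il4ra as well as Fgl2. In MSC-EVs, Il4ra (6.86 ± 2.14), Fgl2 (6.03 ± 2.29) and Ly6c2 (5.04 ± 3.53) came first, followed by Retnla (2.10 ± 1.94), Chil3 (2.02 ± 1.88), Ccr2 (0.74 ± 0.685) and Mrc1 (0.707 ± 0.585), and then by F13a1 (0.237 ± 0.180) and Cd163 (0.113 ± 0.171). Each gene overlapped with the next in this order.

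The deposited FPKM of Chil3 was out of step with its count in 1 library. NS replicate 3 had 10 counts and 2.52 FPKM, whereas NS replicate 1 had 29 counts and 0.66 FPKM. The transcript length implied by the pair of values was 191 bases in NS replicate 3 and 1538 to 1599 bases in the other 5 rd10 libraries. The annotation lists a Chil3 transcript of 1539 bases (Chil3-201) and one of 174 bases (Chil3-203). The FPKM of Chil3 in NS replicate 3 therefore refers to another length than in the other libraries, and it was the highest of the NS group, while the count was the lowest.

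**Figure D3:**
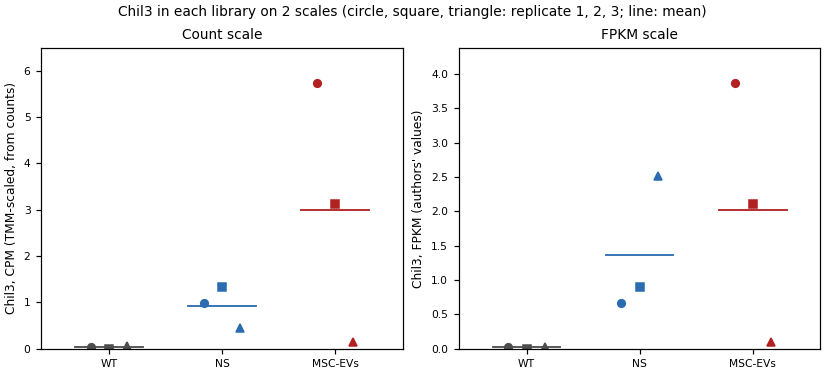
Chil3 in each of the 9 libraries as CPM from counts (left) and as the authors' FPKM (right), with linear axes from 0 and the group mean as a line. NS replicate 3 (blue triangle) is the lowest NS library on the count scale (0.458 CPM) and the highest on the FPKM scale (2.52).

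The interleukin 4 pathway around these genes was described from lists of its parts. The ligands were barely seen: Il4 had 1 count in 1 library (MSC-EVs replicate 3) and Il13 had 2 counts in 1 library (NS replicate 3). Of the 4 receptor chains, 3 were tested and all 3 were higher in NS than in WT (9.16% of all genes). Il13ra1, the partner of Il4ra in the receptor for interleukin 13, had 1.2 to 1.84 CPM in WT and 6.45 to 9.85 CPM in NS (log2 fold change 2.24 ± 0.23, adjusted p = 4.69e-06). Il2rg, the common gamma chain, rose by a log2 fold change of 2.13 ± 0.27 (adjusted p = 2.5e-05). Among the 4 Janus kinases, Jak3, which pairs with the gamma chain, was higher (1.85 ± 0.18, adjusted p = 3.08e-06), and Jak1, the most abundant, had -0.02 (adjusted p = 0.825).

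Of the 6 transcription factors, 5 were tested, with 1 higher (9.16% of all genes) and 1 lower (3.56% of all genes). Stat6 rose from 7.16 to 7.94 CPM in WT to 15.7 to 20.9 CPM in NS (1.27 ± 0.12, adjusted p = 2.64e-06). Ppargc1b, a coactivator of mitochondrial genes that is also used in alternative activation, fell (-1.29 ± 0.11, adjusted p = 1.76e-06). Kdm6b was the most abundant of the list. Of the 4 feedback inhibitors, 3 were higher (9.16% of all genes). These were Socs3 (4.18 ± 0.12, adjusted p = 2.69e-10), Ptpn6 (1.93 ± 0.35) and Socs1 (1.31 ± 0.35, adjusted p = 0.0062). Cish went the other way and stayed under the fold limit (-0.45 ± 0.12, adjusted p = 0.0066). Of 12 other target genes, 4 were tested and 2 were higher (9.16% of all genes). They were Clec7a, the beta-glucan receptor Dectin-1 (4.97 ± 0.26, adjusted p = 2e-08), and Tgm2, tissue transglutaminase (2.10 ± 0.09, adjusted p = 3.32e-09). The other 8 targets, Ccl17, Ccl22, Ccl24 and Chil4 among them, stayed below the filter.

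Between MSC-EVs and NS, 0 genes of these lists passed with edgeR, DESeq2 or limma on FPKM, with 6 of the 20 tested genes at an unadjusted p under 0.05, where 20.2% of all genes were. Tgm2 had 68.0, 62.4 and 46.4 CPM in MSC-EVs against 35.4 to 37.8 CPM in NS, a log2 fold change of 0.68 ± 0.13 (adjusted p = 0.0489) that stayed under the fold limit. The groups did not overlap. Of the 8 genes of the interleukin 10 and TGF-beta route, 5 were tested. All 5 were higher in NS than in WT (9.16% of all genes), with Il10ra (2.98 ± 0.26), Sphk1 (2.41 ± 0.12) and Tgfb1 (2.37 ± 0.20) in front. Stat3, the most abundant gene of the route, had 234 to 290 CPM in NS and 370 to 388 CPM in MSC-EVs (0.54 ± 0.08, adjusted p = 0.0252), again under the fold limit.

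**Figure D4:**
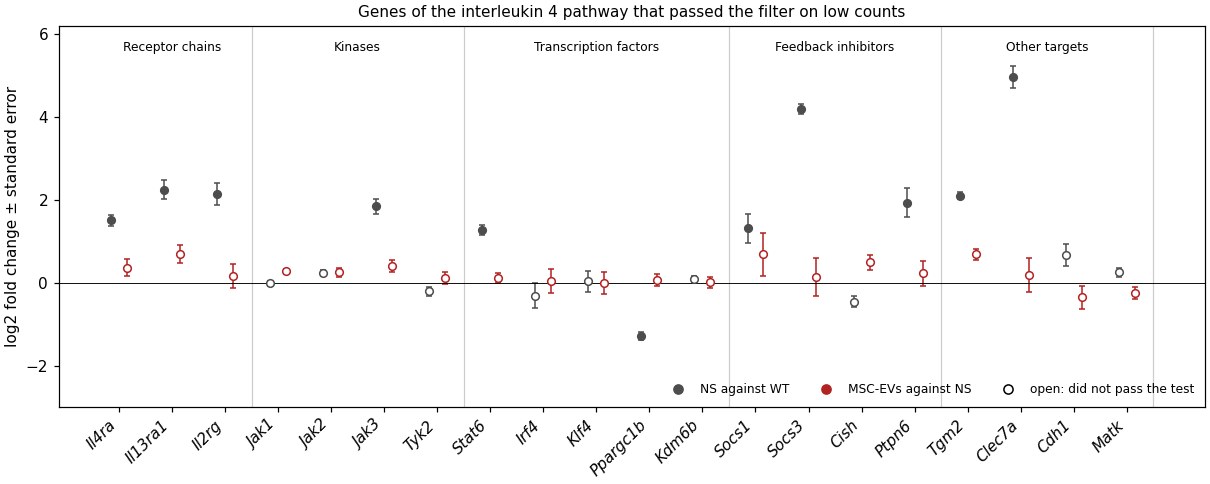
Log2 fold change with its standard error for genes of the interleukin 4 pathway, by role, in NS against WT (grey) and MSC-EVs against NS (red); filled points passed the test and open points did not. Socs3 (4.18) and Clec7a (4.97) are the highest points of NS against WT, Ppargc1b (-1.29) is the lowest, and all red points are open.

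Arginine metabolism, which also feeds nitric oxide synthesis in macrophages, was followed in 12 genes, all of them tested and led in level by Azin1. In NS against WT, 1 of the 12 was called, where 9.16% of all tested genes were called higher. This gene was Ass1, which makes the precursor of arginine (higher by 1.22 ± 0.13 on the log2 scale, adjusted p = 6.46e-05). Ass1 had 33.6, 35.1 and 36.6 CPM in WT, 72.5, 103 and 71.8 CPM in NS and 61.9, 58.7 and 52.6 CPM in MSC-EVs. All MSC-EVs libraries were thus between the WT and NS ranges (MSC-EVs against NS -0.51 ± 0.14, adjusted p = 0.118). Nos2, the inducible nitric oxide synthase, had 0.314 to 0.403 CPM in WT and 0.539 to 0.845 CPM in NS (0.97 ± 0.39, adjusted p = 0.0475), just under the fold limit. Between MSC-EVs and NS, 0 of the 12 passed with edgeR or DESeq2, and 3 had an unadjusted p under 0.05 (20.2% of all genes).

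Of 10 genes from the same families, 9 were in the table and 4 were tested. Of the 4, 2 were higher in NS than in WT (9.16% of all genes). Chil1, a chitinase-like gene of astrocytes and macrophages, rose from 12.9 to 14.7 CPM in WT to 58.4 to 90.7 CPM in NS (2.49 ± 0.18, adjusted p = 1.25e-05). Ly6c1, the endothelial neighbor of Ly6c2, had 16 to 22.0 CPM in WT and 16.7 to 23.1 CPM in NS (0.14 ± 0.14, adjusted p = 0.429). Ly6c2 and Ly6c1 thus had unequal changes, although they share sequence. Ly6a rose by a log2 fold change of 1.15 ± 0.13 (adjusted p = 8.33e-06). Retnlb had 0 counts in every library, and Retnlg had 0 to 3 counts in WT and NS and 6, 16 and 3 counts in MSC-EVs.

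Marker lists of macrophages and monocytes were followed beside the members. Of 12 classical monocyte genes, which include Ccr2, Ly6c2, Chil3 and F13a1, 10 were tested. Of the 10, 9 were higher in NS than in WT (9.16% of all genes). The summed level of the list was 161 to 170 CPM in WT, 242 to 313 CPM in NS and 301 to 378 CPM in MSC-EVs. Most of it came from Fn1 (76.9 to 80.8 CPM in WT) and Itga4 (75.5 to 87.2 CPM in WT, 78.7 to 102 CPM in NS and 125 to 134 CPM in MSC-EVs), so the sum says little of Ccr2, Ly6c2, Plac8 and Ms4a4c, which were below 0.1 CPM in every WT library. Plac8, a gene of monocytes and other leukocytes, had 1, 0 and 0 counts in WT and 121, 47 and 37 counts in NS (7.03 ± 0.72, adjusted p = 4.98e-06). Of the 10 tested, 6 (the 4 members, Plac8 and Ms4a4c) passed the filter in no WT library and were tested only through their level in NS, so the count of 9 is largely set by the filter. Of 12 border and perivascular macrophage genes, 6 were tested and 5 were higher (9.16% of all genes). Among these, Mrc1, F13a1, Siglec1 and Ms4a7 had likewise passed the filter in no WT library. Siglec1, the sialoadhesin of border macrophages, had a log2 fold change of 5.08 ± 0.62 (adjusted p = 8.08e-05), and Ms4a7 of 5.42 ± 0.70 (adjusted p = 7.65e-05). Cd209f had 0 counts in every library, Pf4 had 0 counts in WT and 1 to 8 counts in rd10, and Lyve1, the most abundant gene of the list, was not called (-0.30, adjusted p = 0.0176).

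All 11 resident microglia genes were tested and 9 were higher in NS than in WT (9.16% of all genes), led in fold by Adgre1 (4.21 ± 0.21), Aif1 (3.80 ± 0.30) and C1qa (3.54 ± 0.11). Aif1 had passed the filter in no WT library. Sall1 (0.69) and Siglech (0.87) were not called, and the median log2 fold change of the 11 genes was 1.49. Their summed level, with Csf1r as the most abundant gene, was 40.8 to 44 CPM in WT, 196 to 240 CPM in NS and 239, 297 and 175 CPM in MSC-EVs replicates 1 to 3. Of 12 classical activation genes, 9 were tested, 5 of them (Cxcl9, Il1b, Cxcl10, Cd86 and Nos2) through NS alone. Of the 9, 6 were higher (9.16% of all genes), led by Cxcl9 (5.56 ± 0.85), Il1b (4.51 ± 0.63), Cd68 (4.37 ± 0.24) and Cxcl10 (4.30 ± 0.31). Ccl2, the ligand of CCR2, had 0, 1 and 0 counts in WT and 66, 41 and 17 counts in NS (6.34 ± 0.80, adjusted p = 2.84e-05), and 15, 132 and 22 counts in MSC-EVs. It too was tested only through its level in NS. The library with the highest Ccl2, MSC-EVs replicate 2, was not the one with the highest Ccr2, which was MSC-EVs replicate 1.

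Few genes of the other blood cell lists were tested in NS against WT, where 9.16% of all genes were called higher. Of 12 neutrophil genes only Csf3r, which microglia and monocytes also express, was tested (2.89 ± 0.29, adjusted p = 3.81e-06). Ly6g had 0 to 2 counts, and Elane had 0 counts in every library. The neutrophil list, led by Csf3r, summed to 0.806 to 1.10 CPM in WT and 5.05 to 9.49 CPM in rd10. Of 12 lymphocyte genes only Cd8a was tested against WT (1.23 ± 0.30, adjusted p = 0.00392), and the list summed to 1.25 to 1.79 CPM in WT and 2.74 to 7.55 CPM in rd10. Of 8 dendritic cell genes, Itgax was the only one of 4 tested against WT that was higher (5.82 ± 0.46, adjusted p = 6.02e-07), and it had passed the filter in no WT library. This list, led by Zbtb46, summed to 11.2 to 12.1 CPM in WT and 15.4 to 22.0 CPM in rd10. Between MSC-EVs and NS, 5 lymphocyte and 5 dendritic cell genes were tested and 0 passed, with 0 at an unadjusted p under 0.05.

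Tissue next to the retina differed between libraries. The 8 genes of retinal pigment epithelium and choroid, led by Ttr, summed to 37.5 to 68.1 CPM in WT. They reached 213, 54.6 and 149 CPM in NS and 72.3, 57.1 and 172 CPM in MSC-EVs. Of the 8, 3 (Tyrp1, Tyr and Best1) were higher in NS than in WT (9.16% of all genes). NS replicate 1, which had the highest level of this list, also had the highest CPM of the NS group for 7 members. These were Mrc1, Cd163, F13a1, Ccr2, Ly6c2, Il4ra and Fgl2. The share of all genes with this order was not taken, so the 7 cannot be read as unusual. MSC-EVs replicate 3 was the highest of its group in this list and the lowest of the rd10 libraries for 6 members, as it was for 20% of the tested genes. The part of carried-over tissue in the member values was not tested. The 10 genes of cornea, conjunctiva and skin epithelium summed to 1.11 to 3.02 CPM in all libraries, and the 1 tested, Trp63, was lower in NS than in WT (-1.59 ± 0.46, adjusted p = 0.0106). Of 5 ciliary body and iris genes, all tested, Cldn2 was higher (9.16% of all genes). Aqp1, which the inner retina also expresses, was lower (3.56% of all genes). Of 7 fibroblast genes, 6 were tested and 4 (Col1a2, Col3a1, Postn and Pdgfra) were higher (9.16% of all genes). Of the 7 Müller glia genes, Gfap, Vim and Aqp4 were higher (9.16% of all genes). Of the 9 rod genes, 8 were lower (3.56% of all genes). None of the 2 tested skeletal muscle genes, 5 erythrocyte genes and 6 endothelial genes was called by edgeR, with 1, 1 and 4 of them at an unadjusted p under 0.05 (65% of all genes). Between MSC-EVs and NS, 0 genes of any of these cell lists passed with edgeR or with DESeq2. At an unadjusted p under 0.05 this held for 1 of 11 tested monocyte genes, 0 of 7 border macrophage genes and 1 of 11 microglia genes, beside 20.2% of all genes. It held for 3 of 5 ciliary body and iris genes, 3 of 7 Müller glia genes, 2 of 8 genes of retinal pigment epithelium and choroid, 2 of 9 rod genes and 1 of 6 endothelial genes.

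**Figure D5:**
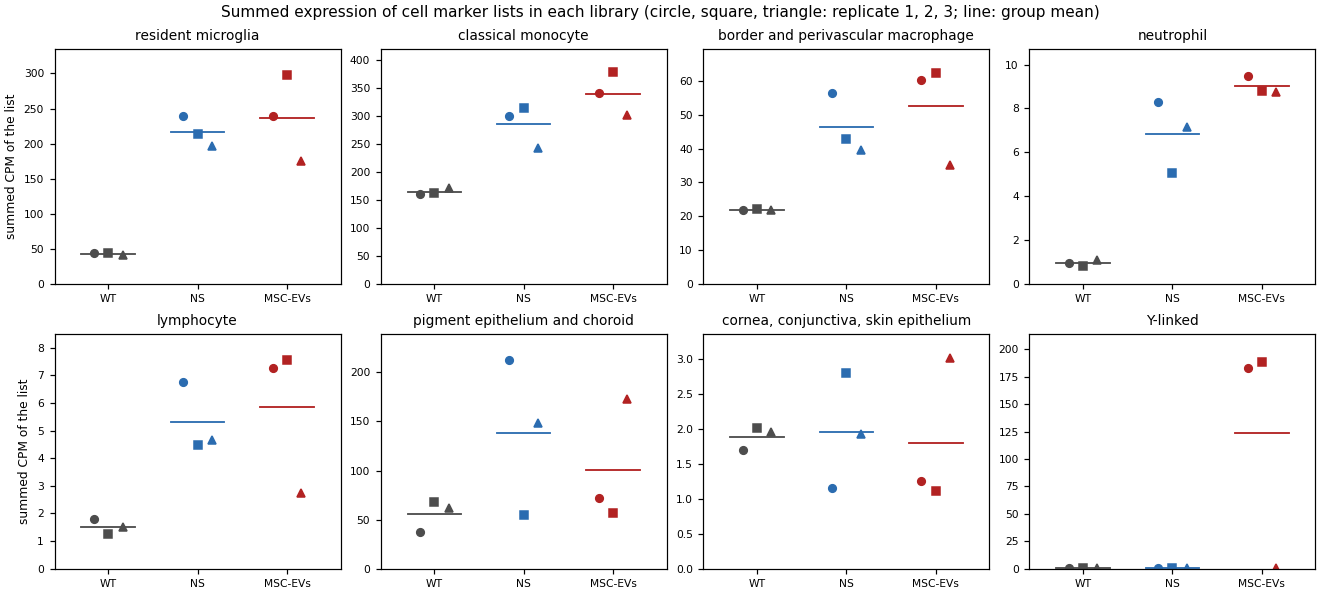
Summed CPM of 7 cell marker lists and of the 4 Y-linked genes (vertical axes, linear and from 0, a separate scale per list) in each of the 9 libraries, with the group mean as a line. The microglia list lies at 40.8 to 44 CPM in WT and at 175 CPM or more in rd10, and the Y-linked genes reach 183 and 189 CPM in MSC-EVs replicates 1 and 2 only.

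The members were also expressed per 100 CPM of the microglia list, a scale chosen after the values were seen. Fgl2 then stood at 5.01, 4.98 and 4.64 in NS and at 7.57, 10.6 and 9.43 in MSC-EVs replicates 1 to 3. The rd10 groups did not overlap on this scale, and MSC-EVs replicate 3 lay between the others. Il4ra did not overlap either, with 9.17 to 10.9 in NS and 11.1 to 12.3 in MSC-EVs. The share of all genes separated on this scale was not taken. Chil3 stood at 0.233 to 0.620 in NS, and at 2.40, 1.05 and 0.0890 in MSC-EVs. On the same scale Il4ra was higher in WT (14.8 to 19.8) than in NS (9.17 to 10.9), the reverse of its order in CPM, because the microglia list rose more than Il4ra.

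Genes most alike in pattern were ranked by Pearson's r of log2 CPM over the 9 libraries, as a description of libraries that share group and depth. Fgl2 was most like Myo1e (r = 0.997), Cd86 (0.994) and Tmbim1 (0.994), and Ly6c2 like Plac8 (0.985), Il2rb (0.984) and Ms4a7 (0.982). Il4ra was most like Rragd (0.993), Akt1 (0.993) and Nrg3 (0.992), Ccr2 like Ifi203 (0.978), Gm4951 (0.976) and Mndal (0.974), Mrc1 like Rnf149 (0.978), Pnrc2 (0.970) and Trim2 (0.970), and Chil3 like Gatm (0.970), Sos1 (0.968) and Parp10 (0.957). Among the members themselves, over the 6 rd10 libraries, Retnla and Il4ra were most alike (r = 0.943), followed by Chil3 and Ccr2 (0.893), while F13a1 and Fgl2 were at -0.104. These 6 libraries include the pair with high Y-linked expression, which was also the pair highest in Retnla and Il4ra.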

How the data were processed

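RNA of mouse retina was measured by RNA-seq after oligo(dT) enrichment in 9 libraries, 3 per group, grouped by their labels, and every column was matched to its library through the column name. Per the submitters' processing notes, fastp, Bowtie2, HISAT2, StringTie 1.3.1 and RSEM were used; the authors' genome build and annotation are not given in the sources used here. The authors deposited estimated counts per gene and FPKM values, which are scaled to transcript length and library size. Before testing, these estimates were rounded to integers. Library totals ranged from 19491717 to 62532343 counts, and intervals and floors (95%, 3 counts) cover counting error only.

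Each pair of groups was fitted alone with edgeR 4.0.16 in R 4.3.3 (filterByExpr, TMM factors, quasi-likelihood F test, Benjamini-Hochberg adjustment over all tested genes). Calls required an adjusted p under 0.05 and a change of at least 1 on the log2 scale, in either direction. Standard errors of the edgeR fold changes were back-calculated as the absolute log2 fold change over the square root of F, and are approximate. DESeq2 1.42.0, limma 3.58.1 on log2(FPKM + 1) and log2(FPKM + 0.1), other scalings and filters, all 9 libraries fitted together, the replicate number as a block, a Y-linked covariate and each library left out were tried as alternatives. The statistical steps were tested on data simulated from the NS and WT libraries alone. The genes changed there were not near 0 counts in WT. The simulation therefore does not cover members near 0 or the comparisons with MSC-EVs. Figures were drawn with matplotlib 3.10.9.

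The members and lists were chosen with earlier results of these data known. The rule found 10 members, of which 1 is not reported here, and some genes of the lists are likewise not reported. Within lists, the text names up to 4 called genes per direction by the size of the change, the most abundant gene and genes at 0 in every library. Relatives, Y-linked genes and the genes most alike by Pearson's r of log2(CPM + 0.5) are also named. Genes named beyond this (Pf4, Ly6g, Ccl17, Ccl22 and Ccl24 among them) were chosen after their values were seen.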

Additional observations from a re-analysis of the deposited data

How the results depend on the processing

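The members called in NS against WT numbered 7, and 1 when at least 10 counts were required in every library, a filter that removes genes near 0 in WT. With limma on log2(FPKM + 1), 4 members and 986 genes were called in place of 7 and 1863, and without a limit on the fold change 8972 genes were. Chil3 was among those 4 members, and its FPKM in NS replicate 3 refers to another transcript length. Chil3 lost its call when all 9 libraries were fitted together (adjusted p = 0.075). In MSC-EVs against WT, 4 members were called, but 1 with at least 10 counts in every library, 7 with all 9 libraries fitted together, 8 with limma on log2(FPKM + 0.1), and 4 to 8 when 1 library was left out (8 without MSC-EVs replicate 3). The genes called there numbered 1006 with limma on log2(FPKM + 1) and 8117 without a limit on the fold change, against 1784.

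For MSC-EVs against NS, the 9 genes called became 25 with DESeq2, 38 with all 9 libraries fitted together, 28 with the Y-linked covariate and 172 without a limit on the fold change. Leaving out 1 library gave 0 to 82 genes (0 without NS replicate 3 or MSC-EVs replicate 1, 5 without NS replicate 2, 21 without NS replicate 1, 22 without MSC-EVs replicate 3, 82 without MSC-EVs replicate 2). The members called numbered 1 with DESeq2, 1 with all 9 libraries fitted together and 0 when any 1 library was left out. With the Y-linked covariate the log2 fold changes of Chil3 (-2.52), Mrc1 (-2.54), Ccr2 (-0.75) and Il4ra (-0.14) turned negative, while F13a1 was at -2.16, Ly6c2 at -2.38 and Fgl2 at 0.65. Chil3 also turned negative on log2(FPKM + 0.1) (-0.064), where its NS replicate 3 value (2.52 FPKM from 10 counts) refers to another transcript length. The part of that value in the change of sign was not tested. When 1 library was left out, Ccr2 ranged from -0.11 (without MSC-EVs replicate 1) to 1.42, and Ly6c2 from -0.66 to 0.91 (positive without NS replicate 1, 0.91, or MSC-EVs replicate 3, 0.41). Chil3 then ranged from 0.73 to 2.26, Mrc1 from 0.073 to 1.37, F13a1 from -1.83 to -0.54, Il4ra from 0.12 to 0.57 and Fgl2 from 0.71 to 1.23. None of these passed the test with its fold limit, and the cause was not tested.

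With the replicate number as a block, 21 genes and 0 members were called in MSC-EVs against NS. Same-numbered libraries deviated together with correlations of 0.088, 0.198 and 0.288, and every MSC-EVs library correlated best with its own number, a hint from the data and not from the design. The block left 7 members called in NS against WT and 4 in MSC-EVs against WT.

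Fold changes of single members kept direction and side of the threshold in 95 alternatives of NS against WT (4 lost the call), 59 of MSC-EVs against WT (2 lost it) and 98 of MSC-EVs against NS (2 gained it and 8 changed sign). Settings in which a member was not tested or had no adjusted p are left out of these numbers. With at least 10 counts in every library, only Il4ra was tested in NS against WT. The alternatives reuse the same libraries, and Chil3, Mrc1, F13a1, Ccr2 and Ly6c2 were tested there only through their level in NS. Values from fewer than 10 counts in a library carry a large counting error, and the part of depth in them was not tested. MSC-EVs replicate 3, the deepest library, held 2 counts of Retnla and 0 of Cd163.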
